A study of Mus musculus with 4 samples.

Results

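A set of genes of the MHC class II presentation pathway was followed gene by gene in T8 leukemia cells after re-introduction of IRF4. The members are the classical chains *H2-Aa*, *H2-Ab1* and *H2-Eb1*, the DM chains *H2-DMa*, *H2-DMb1* and *H2-DMb2*, the DO chains *H2-Oa* and *H2-Ob*, the invariant chain *Cd74* and the transactivator *Ciita*. They were chosen by name, with earlier results of these data known, and all 10 were found among the 55359 genes of the count table. MHC class II molecules are heterodimers of an alpha and a beta chain that show peptides from endosomes to CD4 T cells. The invariant chain CD74 escorts the new heterodimer to the endosome and blocks its groove, DM exchanges the remaining CD74 fragment for peptide, and DO restrains DM. CIITA is the coactivator that acts on the promoters of class II and invariant chain genes through the proteins bound to their X and Y boxes, and it is itself set by B cell promoters of *Ciita* or by interferon-gamma signaling. Class II genes are low in early B cell progenitors and high in mature B cells.

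T8 is a line of pro/preB cell leukemia that was established from a single primary tumor of an *Irf4-/-* mouse, so it stands for 1 tumor, and it was first grown on ST2 stromal cells. Cells of the same *Irf4-/-* genotype received either a retrovirus coding for GFP alone (EV-RV, 2 libraries) or a retrovirus coding for GFP and IRF4 (IRF4-RV, 2 libraries), and bulk RNA was sequenced from viable cells a day later. The culture and transduction text of the labels names T11, while titles and tissue name T8, and the libraries were used as T8. The submitters call the replicates biological but name no separate cultures, so the p-values measure the spread between these libraries, which may be technical.

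Depth was 31686715 and 31230223 counts for EV-RV against 34771970 and 37817752 for IRF4-RV. The lowest level taken as detectable, 3 counts, was worth 0.0824 to 0.0952 CPM (counts scaled to depth with TMM factors), a limit that covers counting error only. *Irf4* itself was counted 8070 and 7600 times with EV-RV against 95578 and 90693 times with IRF4-RV, so that its log2 fold change reached 3.46 (standard error, SE, 0.0907, adjusted p = 1.14e-06 in edgeR). With IRF4-RV these counts add up vector and locus, while the EV-RV virus codes for GFP alone. What the EV-RV counts stand for in *Irf4-/-* cells was not tested. The B lineage genes *Cd79a* and *Cd79b* lay at 290 CPM or more in all 4 libraries, while the recombinase gene *Rag1* had at most 1 count. IRF4-RV replicate 2 stood apart in stromal genes: 8 stromal markers summed to 221 CPM there and to 47, 47.5 and 89.4 CPM in the other libraries. Counts of whole cultures cannot tell fewer cells of a type from less RNA per cell, nor transduced from untransduced cells.

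Most members, 8 of 10, lie together in the class II region of chromosome 17 of GRCm38, from *H2-Oa* (chr17:34092340-34095234, plus strand) to *H2-Eb1* (chr17:34305867-34316674, plus strand). The RefSeq promoter table held windows for 7 of the 10 members, 8 windows in all, each with 250 bases before and 50 bases after a gene start. The stretches from 130 to 31 bases before the start are shown for 6 genes because CIITA acts through the X and Y boxes that lie there. Each runs 5′ to 3′ on the strand of its gene, and capitals mark an X-like 9-mer and the core of the Y box (GATTGG). Starts are those of RefSeq on GRCm38.p6 and can differ from those of the gene models used for counting.
H2-Oa, chr17:34092249-34092348, plus strand: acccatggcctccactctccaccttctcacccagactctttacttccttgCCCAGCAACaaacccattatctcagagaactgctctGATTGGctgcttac
H2-Ob, chr17:34238775-34238874, plus strand: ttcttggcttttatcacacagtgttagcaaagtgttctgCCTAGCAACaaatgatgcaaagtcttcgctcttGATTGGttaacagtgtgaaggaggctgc
H2-DMb1, chr17:34153061-34153160, plus strand: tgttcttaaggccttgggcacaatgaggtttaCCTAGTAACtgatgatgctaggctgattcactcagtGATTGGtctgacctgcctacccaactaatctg
H2-DMb2, chr17:34145119-34145218, plus strand: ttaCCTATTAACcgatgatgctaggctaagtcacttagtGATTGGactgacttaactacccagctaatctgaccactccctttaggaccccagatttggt
H2-Eb1, chr17:34305737-34305836, plus strand: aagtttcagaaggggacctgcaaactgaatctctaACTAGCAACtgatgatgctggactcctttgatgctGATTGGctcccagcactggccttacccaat
H2-Aa, chr17:34287854-34287953, minus strand: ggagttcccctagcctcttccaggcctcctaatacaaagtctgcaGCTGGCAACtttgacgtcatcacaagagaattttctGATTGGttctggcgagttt

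In these stretches the X-like 9-mer ended 24 to 27 bases before GATTGG. The X box was searched on both strands as CCNAGNNAC and was found in 5 of the 8 member windows, against 17.3% of the 32851 windows of the same length in the table. For *H2-DMb2* and *H2-Aa* these matches lay outside the stretch shown and were not the marked 9-mer. The Y box, searched as CTGATTGG, was found in 3 of 8, against 4.1% of all windows. The arrangement of both, an X-like 9-mer 15 to 30 bases before GATTGG on the strand of the gene, was chosen after the windows had been seen. With all 6 fixed letters of the X box kept, it was present for *H2-Oa*, *H2-Ob* and *H2-DMb1* and in 0.07% of all windows. With at most 1 letter changed it also took in *H2-DMb2* and *H2-Eb1* and 0.706% of all windows, and with at most 2 letters changed *H2-Aa* and 3.91%. The 9-mers of the DM beta chains differed by G5T, with *H2-DMb1* given first and positions counted from 1 at the 5′ end of the 9-mer. The interferon response core GAAANNGAA and the ETS-IRF composite GGAANNGAA were found in 0 of 8 member windows, against 8.56% and 8.24% of all windows. The GAS element TTCNNNGAA was found for *H2-DMb2* alone, against 8.3%. The 2 windows of *H2-DMa* did not hold the arrangement with at most 2 letters changed. These matches describe letters in a short window and no binding was measured.

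**Figure D1:**
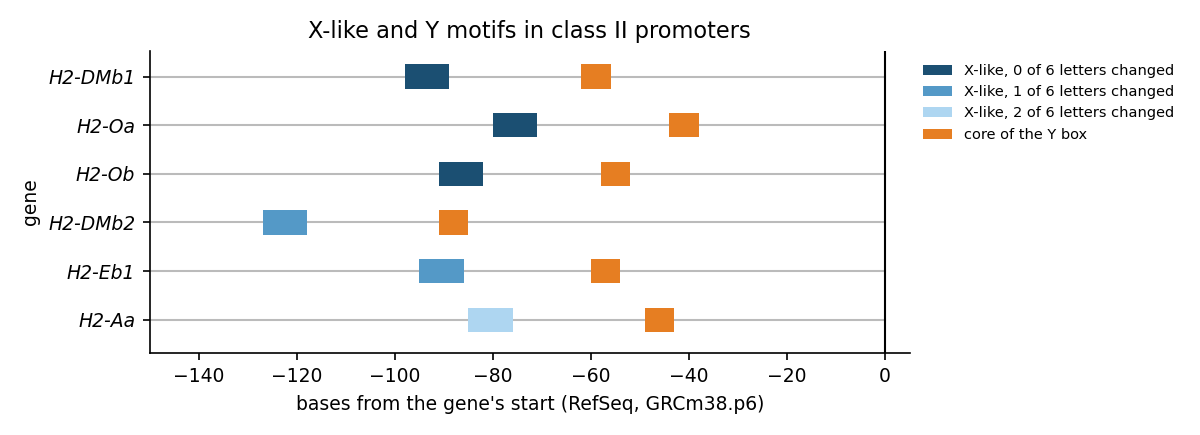
Position of the X-like 9-mer (blue, darker with fewer letters changed) and of the core of the Y box (orange) in 6 class II promoters, in bases from the RefSeq start on GRCm38.p6. The search took only 9-mers 15 to 30 bases upstream of the Y box core, so that side was set in advance. Within that range the distance was 24 to 27 bases in the 6 genes.

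Of the 10 members, 3 rose with IRF4-RV (*Cd74*, *H2-Oa* and *H2-Ob*) and 1 fell (*H2-DMb2*) in edgeR's quasi-likelihood test at an adjusted p under 0.1, the cutoff the study set. The fall of *H2-DMb2* was lost with DESeq2, which called the same 3 genes higher and 0 lower (0 also at an unadjusted p under 0.05), at an FDR of 0.05 and in 3 of the 4 fits that leave out 1 library. The share of 4 in 10 stands beside 29.7% of the 14637 genes tested, of which 16% rose and 13.7% fell. Of the genes called, 53.8% were higher, and 37.8% with library size in place of TMM scaling, under which the same 4 members were called. The groups did not overlap for 3 members in the upward and 2 in the downward direction, beside 31.3% and 29.9% of all genes tested (61.3% in either direction). The median log2 fold change of the members was 0.04, beside 0.01 for all genes tested. All 10 passed the main filter on low counts. A stricter filter on a mean of 50 normalized counts kept 5 of them, *H2-Ab1*, *H2-DMb2*, *H2-Oa*, *H2-Ob* and *Cd74*.

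**Figure D2:**
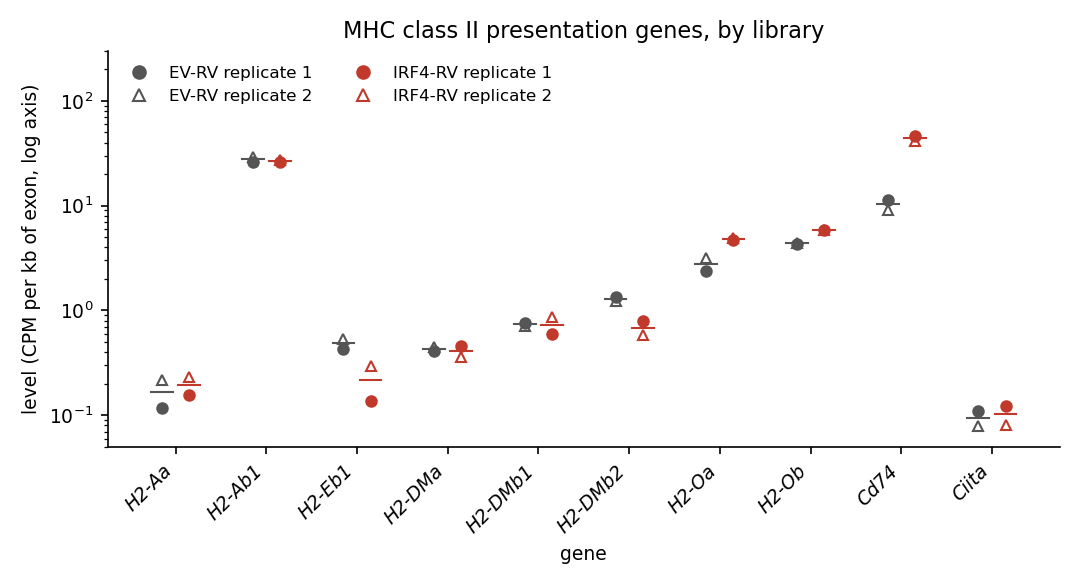
Level of the 10 members in each of the 4 libraries, in CPM per kilobase of exon on a log scale, with EV-RV in gray, IRF4-RV in red, circles for replicate 1, triangles for replicate 2 and lines for group means. Cd74 moves from between 9.16 and 11.4 to between 41.6 and 46.2, while H2-Ab1 lies between 26.2 and 29 in both groups.

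The invariant chain gave the largest change among the 10 members. *Cd74* (ENSMUSG00000024610, chromosome 18 from 60803848 to 60812652, plus strand) was counted 636 and 485 times with EV-RV against 2625 and 2540 times with IRF4-RV. Both IRF4-RV libraries lay well above both EV-RV libraries. Its level was 17.2 ± 2.6 CPM in EV-RV against 73.6 ± 5.47 CPM in IRF4-RV (mean ± SD, n = 2 each). The fold was 4.27 with a 95% interval from 3.51 to 5.2, and the log2 fold change of 2.09 (SE 0.122) had an edgeR adjusted p of 2.81e-05. A larger log2 fold change was found for 231 genes, 1.58% of those tested. No stretch of 50 bases in its exons was shared with another annotated gene.

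*Ciita*, the coactivator of the pathway, was counted rarely and its groups overlapped. *Ciita* (ENSMUSG00000022504, chr16:10480059-10528418, plus strand) was counted 35 and 24 times with EV-RV against 40 and 28 times with IRF4-RV. In each group replicate 1 was the higher library. Its log2 fold change was 0.10 (SE 0.398, edgeR adjusted p = 0.888). At this depth the 95% interval of the fold ran from 0.566 to 2.04, so a change within that range is not excluded. Its exons share 3.45% of their bases with *Dexi* on the opposite strand, which had 254 to 284 counts.

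Among the 3 classical chains, 0 passed the cutoff in edgeR's test or with DESeq2, and 1 (*H2-Eb1*) had an unadjusted p under 0.05 in edgeR. *H2-Ab1*, the beta chain of the I-A molecule (ENSMUSG00000073421, chr17:34257689-34269419, plus strand), was counted 2250 and 2344 times with EV-RV against 2282 and 2561 times with IRF4-RV. Its levels of 67.4 and 74.3 CPM with EV-RV overlapped those of 67.4 and 70.3 CPM with IRF4-RV. A log2 fold change of -0.04 (SE 0.0849, edgeR adjusted p = 0.777) resulted, and the 95% interval of the fold, 0.847 to 1.11, lay below the whole interval of *Cd74*. *H2-Aa*, the alpha chain that pairs with it (ENSMUSG00000036594, chr17:34282744-34287823, minus strand), was counted only 15 and 26 times with EV-RV against 20 and 32 times with IRF4-RV. These groups overlapped as well, at a log2 fold change of 0.21 (SE 0.466, edgeR adjusted p = 0.794).

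*H2-Eb1*, the beta chain of the I-E molecule (ENSMUSG00000060586), was counted 28 and 33 times with EV-RV against 9 and 21 times with IRF4-RV. Both IRF4-RV libraries lay below both EV-RV libraries. The log2 fold change of -1.15 (SE 0.48, edgeR adjusted p = 0.135) missed the cutoff, with a 95% interval from -2.26 to -0.03. Without IRF4-RV replicate 2, the library with the most stromal RNA, *H2-Eb1* passed it with a log2 fold change of -1.81 (edgeR adjusted p = 0.0572), and over all alternatives its adjusted p ran from 0.0402 to 0.465. *H2-Ea-ps*, the locus of the I-E alpha chain, is annotated as a polymorphic pseudogene. It had 1 count in IRF4-RV replicate 2 and 0 in the other libraries, where a count of 0 allows up to 3 counts. RNA of *H2-Eb1* therefore does not show that an I-E molecule was made. *H2-Eb2*, a further beta chain gene beside them, was counted 105 and 96 times with EV-RV against 80 and 132 times with IRF4-RV, with a log2 fold change of -0.05 (edgeR adjusted p = 0.92).

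The DO chains, which together form the inhibitor of DM, both rose. *H2-Oa*, the alpha chain (ENSMUSG00000024334), was counted 112 and 140 times with EV-RV against 222 and 250 times with IRF4-RV. *H2-Ob*, the beta chain (ENSMUSG00000041538, chr17:34238903-34254414, plus strand), was counted 775 and 746 times with EV-RV against 1064 and 1143 times with IRF4-RV. For each of these genes the lower IRF4-RV library exceeded the higher EV-RV library. The fold was 1.72 for *H2-Oa*, with a log2 fold change of 0.78 (SE 0.18, edgeR adjusted p = 0.0176). For *H2-Ob* the fold was 1.34, with a log2 fold change of 0.42 (SE 0.0881, edgeR adjusted p = 0.0119). The exons of *H2-Oa* share 22.8% of their bases with the antisense gene *BC051537*, which had at most 4 counts in any library.

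Of the DM chains, 1 fell and the groups of the other two overlapped. *H2-DMb2*, one of the pair of DM beta chain genes (ENSMUSG00000037548, chr17:34143307-34151555, plus strand), was counted 78 and 68 times with EV-RV against 47 and 37 times with IRF4-RV, and both IRF4-RV libraries were below both EV-RV libraries. It fell to a fold of 0.535, with a log2 fold change of -0.90 (SE 0.288, edgeR adjusted p = 0.0593). This call was lost with DESeq2 (adjusted p = 0.177) and without EV-RV replicate 1, EV-RV replicate 2 or IRF4-RV replicate 2 (edgeR adjusted p = 0.218, 0.148 and 0.214), and its adjusted p ran from 0.013 to 0.218 over all alternatives. *H2-DMb1*, the other beta chain gene (ENSMUSG00000079547, chr17:34153072-34160230, plus strand), was counted 43 and 38 times with EV-RV against 34 and 53 times with IRF4-RV, with overlapping groups and a log2 fold change of -0.02 (SE 0.332, edgeR adjusted p = 0.976). Of the distinct 50-base stretches in its exons, 22.7% also occur in *H2-DMb2*, so reads there could have been assigned to either gene or to neither. *H2-DMa*, the alpha chain (ENSMUSG00000037649, chr17:34119541-34139101, plus strand), was counted 47 and 49 times with EV-RV against 54 and 45 times with IRF4-RV, with a log2 fold change of -0.07 (SE 0.298, edgeR adjusted p = 0.902). Its exons share 10.4% of their bases with *Brd2* on the opposite strand, which had 4236 to 5893 counts.

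**Figure D3:**
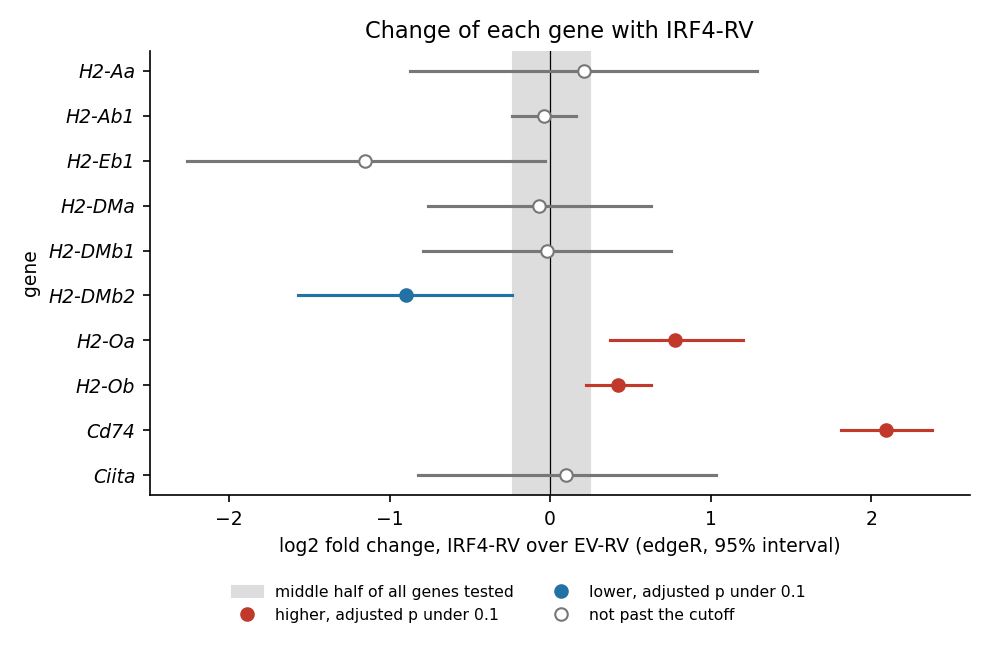
Log2 fold change of each member, IRF4-RV over EV-RV, as points with 95% intervals from edgeR, over the gray interquartile range of all genes tested (-0.23 to 0.25). Cd74 stands apart at 2.09, H2-Oa and H2-Ob lie above the gray band, H2-DMb2 lies below it, and the intervals of the other 6 members are drawn with open symbols because they missed the cutoff.

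Levels were compared between genes as CPM per kilobase of exon. With EV-RV, *H2-Ab1* came first at 27.6, followed by *Cd74* at 10.3, *H2-Ob* at 4.36 and *H2-Oa* at 2.77 CPM per kilobase. The DM beta chains *H2-DMb2* and *H2-DMb1* came next at 1.29 and 0.742, then *H2-Eb1* at 0.485 and *H2-DMa* at 0.43, whose replicates overlapped, and last *H2-Aa* at 0.168 and *Ciita* at 0.0949 CPM per kilobase. With IRF4-RV, *Cd74* came before *H2-Ab1*, at 43.9 against 26.8 CPM per kilobase, followed again by *H2-Ob* at 5.84 and *H2-Oa* at 4.77. Below them *H2-DMb1* at 0.732 and *H2-DMb2* at 0.688 overlapped, *H2-DMa* lay at 0.41, *H2-Eb1* at 0.217 and *H2-Aa* at 0.193 overlapped, and *Ciita* remained last at 0.102 CPM per kilobase.

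The chains of one heterodimer were far from equal in RNA. Per length, *H2-Ab1* was 222 and 133 times as high as its partner *H2-Aa* with EV-RV against 169 and 118 times with IRF4-RV. These ratios depend on the merged exon lengths, 3798 bases for *H2-Aa* and 2568 bases for *H2-Ab1*, and on only 15 to 32 counts of *H2-Aa* per library. The DO partners were close to each other, with *H2-Ob* at 1.81 and 1.39 times the level of *H2-Oa* with EV-RV against 1.25 and 1.2 times with IRF4-RV. The ratio of *H2-DMb2* to *H2-DMb1* was 1.75 and 1.72 with EV-RV against 1.33 and 0.672 with IRF4-RV. *Cd74* was at 0.432 and 0.316 of the level of *H2-Ab1* with EV-RV against 1.76 and 1.52 times that level with IRF4-RV.

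*Cd74* and *Ciita* were then set against the summed counts of the other chains within each library, which removes the scaling between libraries. The classical sum is mostly *H2-Ab1*, and the sum of DM and DO chains is mostly *H2-Ob*. The log2 ratio of *Cd74* to the classical chains was -1.85 and -2.31 with EV-RV against 0.18 and -0.04 with IRF4-RV. Invariant chain counts thus went from well under those of the classical chains to about the same number. The difference of 2.15 compares with a pooled SD of 0.255, and the two-sided exact permutation test gave p = 0.333 (0.444 adjusted over the 4 ratios), the smallest that 2 against 2 libraries allow.

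The log2 ratio of *Cd74* to the DM and DO chains was -0.73 and -1.10 with EV-RV against 0.89 and 0.73 with IRF4-RV. This difference of 1.72 had a pooled SD of 0.201 and the same exact permutation p of 0.333 (0.444 adjusted). The DM and DO chains relative to the classical chains had log2 ratios of -1.12 and -1.21 with EV-RV against -0.70 and -0.77 with IRF4-RV. Here the difference was 0.43 with a pooled SD of 0.0567 (exact permutation p = 0.333, 0.444 adjusted). The log2 ratio of *Ciita* to the classical chains was -6.01 and -6.62 with EV-RV against -5.83 and -6.52 with IRF4-RV, so the groups overlapped. Its difference of 0.14 was smaller than the pooled SD of 0.456 (exact permutation p = 0.667, 0.667 adjusted), and it turned to -0.16 without EV-RV replicate 2 and to -0.20 without IRF4-RV replicate 1.

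**Figure D4:**
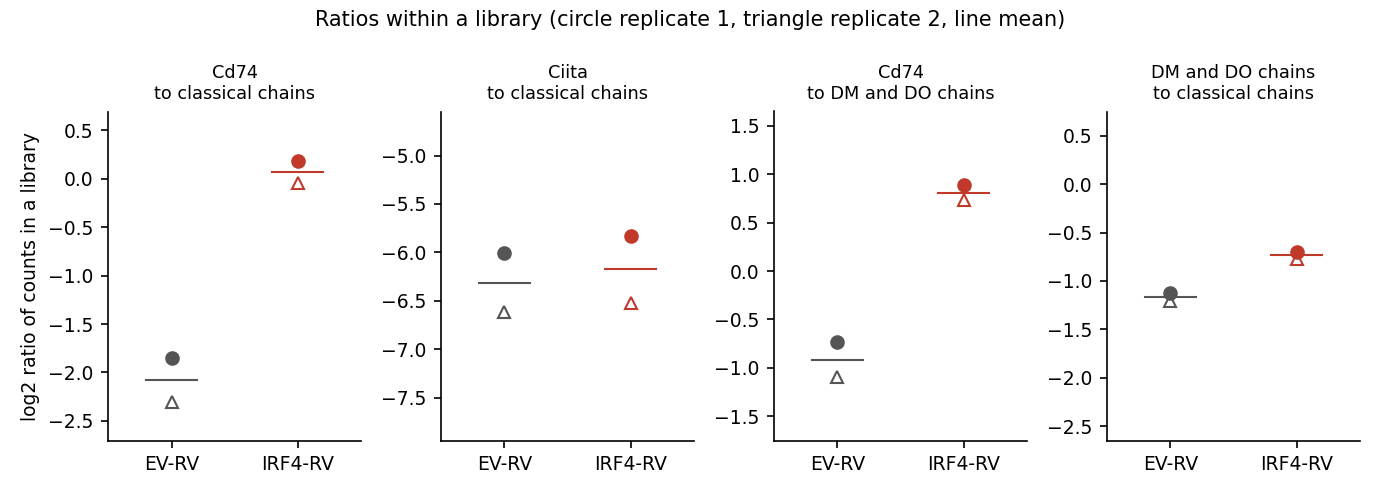
Log2 ratio of counts within each library for the 4 comparisons, with circles for replicate 1, triangles for replicate 2 and lines for group means, each axis spanning the same number of log2 units. The ratios that hold Cd74 rise by 2.15 and 1.72 between the group means, that of the DM and DO chains to the classical chains rises by 0.43, and that of Ciita overlaps between groups.

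The proteins that bind the X and Y boxes and recruit CIITA were listed as *Rfx5*, *Rfxap*, *Rfxank*, *Nfya*, *Nfyb*, *Nfyc* and *Creb1*. Of these 7 genes 2 were called higher and 0 lower in edgeR's test, a share near the 29.7% of all genes tested that were called, with a median log2 fold change of 0.07 (at an unadjusted p under 0.05, *Rfxap* had a log2 fold change of -0.26, named after its values were seen). DESeq2 also called 2 higher and 0 lower, and without IRF4-RV replicate 1 only *Rfxank* was called. *Rfxank*, the ankyrin subunit of RFX, was counted 140 and 193 times with EV-RV against 281 and 334 times with IRF4-RV, a log2 fold change of 0.76 (edgeR adjusted p = 0.0256). *Creb1*, an X2 box factor, rose by a log2 fold change of 0.37 (edgeR adjusted p = 0.0118).

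Genes that act upstream of *Ciita* were listed as well. Of 13 genes on this list, 7 rose, 2 fell and 4 were not called, beside 16% and 13.7% of all genes tested that rose and fell, with a median log2 fold change of 0.41. *Ifng*, the cytokine that switches on the inducible promoter of *Ciita*, was counted 0 and 0 times with EV-RV against 29 and 35 times with IRF4-RV, at least 9.82-fold higher when 3 counts are taken as the floor in each EV-RV library (edgeR adjusted p = 0.00182). *Irf1*, which acts on that promoter, rose from 690 and 628 counts to 1885 and 1829 (log2 fold change 1.38, edgeR adjusted p = 5.51e-05).

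*Prdm1*, which encodes Blimp-1, the repressor of *Ciita* in plasma cells, rose from 8 and 9 counts to 46 and 35 (log2 fold change 2.13, edgeR adjusted p = 0.0115). *Spi1*, encoding PU.1, with which IRF4 and IRF8 bind composite elements, fell from 1275 and 1182 counts to 955 and 997 (log2 fold change -0.45, edgeR adjusted p = 0.00854). *Irf8* fell from 7833 and 7139 counts to 6312 and 6694 (log2 fold change -0.32, edgeR adjusted p = 0.0152). Activators and a repressor of *Ciita* were both among the genes that rose, while *Spi1* and *Irf8* fell. The effect of these changes on *Ciita* was not tested.

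Genes that lie among the class II genes on chromosome 17, and *Btnl2* just beyond them, were taken as neighbors. Of these 6 genes, 3 rose and 0 fell, beside 16% and 13.7% of all genes tested, with a median log2 fold change of 0.24, and 0 were lower in edgeR at an unadjusted p under 0.05 or with DESeq2. *Tap1*, a subunit of the peptide transporter for class I, rose from 7882 and 7349 counts to 16597 and 18795 (log2 fold change 1.10, edgeR adjusted p = 4.3e-05). The immunoproteasome subunits *Psmb9* and *Psmb8* rose by log2 fold changes of 0.47 and 0.27 (edgeR adjusted p = 0.00953 and 0.0717). *Tap1* and *Psmb9* start close to each other on opposite strands and share exon bases, 5.79% of those of *Psmb9*. *H2-Ob* lies on one side of this class I cluster and *H2-DMb1* on the other.

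The next list held endosomal enzymes that act on the invariant chain and antigens. Of 8 genes, 5 rose and 0 fell in edgeR's test (0 also at an unadjusted p under 0.05 and with DESeq2), beside 16% and 13.7% of all genes tested, and the median log2 fold change was 0.57. *Ctsh*, an aminopeptidase of the lysosome, rose from 969 and 929 counts to 2935 and 3356 (log2 fold change 1.61, edgeR adjusted p = 1.66e-05). *Lgmn* and *Ctsb*, proteases of the same compartment, rose by log2 fold changes of 0.71 and 0.62 (edgeR adjusted p = 0.000791 and 0.00069). *Ctss*, the protease that trims the invariant chain in B cells, rose from 2279 and 2391 counts to 3504 and 3795 (log2 fold change 0.53, edgeR adjusted p = 0.00343). *Ctsl*, which takes that role in thymic epithelium and was named after its values were seen, was counted 16 and 34 times with EV-RV against 10 and 92 times with IRF4-RV, highest in the library with the most stromal RNA.

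Of the genes for class II turnover at the surface, *Cd83*, which stabilizes surface class II, was counted 11 and 12 times with EV-RV against 47 and 48 times with IRF4-RV (log2 fold change 1.92, edgeR adjusted p = 0.0101). The ubiquitin ligase gene *March1* had 3 and 7 counts with EV-RV against 6 and 3 with IRF4-RV and was too low to test, and *March8* had a log2 fold change of -0.13 (edgeR adjusted p = 0.468). These 2 were named because the list holds only 3 genes. CD74 also serves as a receptor for the cytokine MIF, together with CD44 and CXCR4. Of the 5 genes of that complex other than *Cd74*, 4 were tested, 2 rose and 2 were not called, beside 29.7% of all genes called. *Cxcr4* rose from 2799 and 2703 counts to 6342 and 5571 (fold 2.01, edgeR adjusted p = 0.000466), and *Cd44* from 514 and 513 to 884 and 886 (log2 fold change 0.67, edgeR adjusted p = 0.0025).

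**Figure D5:**
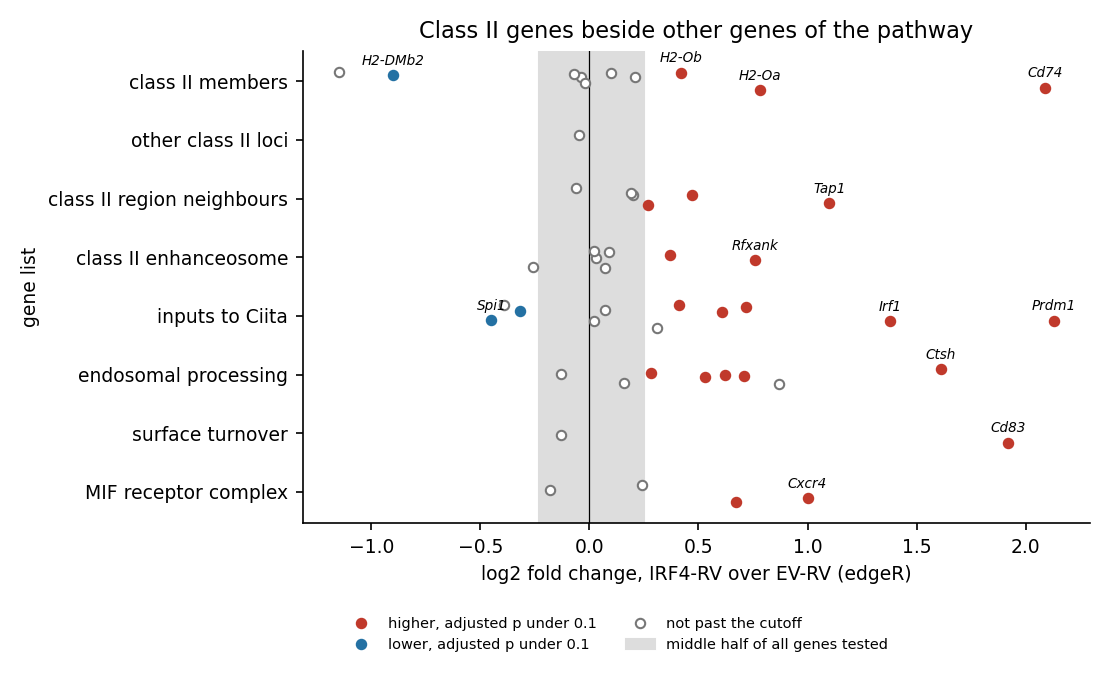
Log2 fold change, IRF4-RV over EV-RV, of each tested gene in the member list and in the other lists of the pathway, filled red or blue where the edgeR adjusted p was under 0.1 and open otherwise, over the gray interquartile range of all genes tested. Ifng, at 0 counts in both EV-RV libraries, and 1 more gene of the list of inputs to Ciita are not drawn. The class II members spread from -1.15 to 2.09, while called genes of the endosomal list all lie to the right of 0.

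Markers of other cells were set beside the class II genes, since professional antigen presenting cells hold much *Cd74*. Of 11 macrophage markers, 10 had at most 3 counts in each library and the summed level was 0.634 to 0.989 CPM in all 4 libraries, with *Adgre1* and *Mertk* at 0. Of 9 dendritic cell markers, 3 were tested and 2 rose (*Ccr7* and *Flt3*), beside 16% of all genes tested. *Zbtb46* was tested and not called, with 27 and 24 counts with EV-RV against 30 and 37 with IRF4-RV. *Xcr1*, too low to test, had 1 and 2 counts with EV-RV against 8 and 15 with IRF4-RV. *Clec9a* and *Batf3* had at most 2 counts in any library, and *Itgax*, *Cd209a* and *Siglech* were at 0 in all libraries. The summed level of this list went from 45.8 and 49.2 CPM with EV-RV to 322 and 324 CPM with IRF4-RV and was nearly all *Ccr7*, the chemokine receptor that B cells also carry, at 44.2 and 47.8 against 318 and 320 CPM. *Ccr7*, *Flt3*, *Xcr1* and *Zbtb46* moved in the same direction as *Cd74*, and their part in the result was not tested.

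Of 6 mature B cell markers, 5 were tested, 2 rose (*Cd40* and *Ighd*) and 1 fell (*Bank1*, not called with DESeq2). Calls in this and the following lists stand beside 16% and 13.7% of all genes tested that rose and fell. The summed level was 36.7 and 31.2 CPM with EV-RV against 51.9 and 47.1 CPM with IRF4-RV. It was mostly *Ighd*, at 31.7 and 26.3 against 45 and 40 CPM. Among 9 preB cell markers, 8 were tested, 1 rose (*Ptprc*) and 2 fell (*Igll1* and *Vpreb1*). Their sum was 3663 and 3799 CPM with EV-RV against 2716 and 2683 CPM with IRF4-RV. Of 12 T and NK cell markers, 3 were tested and 1 fell (*Trac*). Their sum was 20.7 and 21.1 CPM with EV-RV against 13.4 and 13.8 CPM with IRF4-RV. This was nearly all *Trac*, at 18.4 and 19.1 against 11.5 and 11.5 CPM. None of the 8 stromal markers was called in edgeR's test (0 also at an unadjusted p under 0.05 and with DESeq2), yet their sum differed widely between replicates, and without IRF4-RV replicate 1, 6 of them were called higher. *Cd74* was at 77.5 CPM in IRF4-RV replicate 1, where stromal markers summed to 47 CPM, and at 69.8 CPM in IRF4-RV replicate 2, where they summed to 221 CPM. Without IRF4-RV replicate 2, 4 members were called, with *H2-Eb1* in place of *H2-DMb2*, and the rises of *Cd74*, *H2-Oa* and *H2-Ob* were kept. The marker genes in this and the preceding paragraph were named after their values were seen.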

How the data were processed

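Bulk RNAseq of 4 libraries was used, 2 with EV-RV and 2 with IRF4-RV, grouped by the sample labels. The authors deposited whole-number counts per gene, without normalization. The submitters' processing notes name GRCm38, FastQC 0.11.2, STAR 2.4.0j, featureCounts and DESeq2 1.22.1. How strand and multi-mapping reads were handled is not given in the sources used here. Of 55359 identifiers, 52083 were matched to GENCODE M21. The other 3276 held 0.203% to 0.486% of the counts of a library.

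Counts were scaled by TMM, filtered with filterByExpr and tested across 14637 genes with edgeR 4.0.16 in R 4.3.3 (quasi-likelihood test, Benjamini-Hochberg adjustment, FDR cutoff 0.1). TMM factors were 0.9635 to 1.054. CPM are counts scaled to depth with these factors, and per-kilobase levels divide by the merged exon length in GENCODE M21. Ratios within a library used a pseudocount of 0.5. Replicates differed by more than sampling noise (chi-square per degree of freedom 15.2 and 14.3). In simulated tables (14637 genes, 200 changed) edgeR recovered 72.2% of genes changed by a log2 fold of 1 and 90.6% of those changed by 2. Of its calls there, 12.4% were false. Far more genes were called in the real data, so these shares describe the simulated tables only.

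The members and lists were chosen with earlier results of these data known. Named are all members, *Irf4*, *H2-Ea-ps* and *H2-Eb2*, and from each pathway list at most the 4 strongest rises and the 2 strongest falls past the cutoff, of which 1 is not reported here. Alternatives were DESeq2 1.42.0, other scalings, filters, pseudocounts and sums of chains, a replicate block, an FDR of 0.05 and leaving out each library.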

Additional observations from a re-analysis of the deposited data

How the results depend on the processing

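The rises of *Cd74*, *H2-Oa* and *H2-Ob* kept their direction and their call under all 11 alternatives, with adjusted p from 9.05e-134 to 0.000191, from 5.16e-05 to 0.0767 and from 3.94e-05 to 0.0483 in edgeR or DESeq2. Across all genes, 3347 to 6394 were called, the lowest with an FDR of 0.05 and the highest with the block, and with library size only the balance turned to 1743 higher and 2867 lower at a median of -0.08. DESeq2 called 3596 genes and 3 members, and an FDR of 0.05 likewise called 3 members. With the replicate number as a block, 5 members were called, since *H2-Eb1* was added at -1.19 (edgeR adjusted p = 0.0402), and 5 neighbors in place of 3. The other members kept their side of the cutoff under the block. The paired numbers come from the labels, which state no shared batch, and deviations of same-numbered libraries correlated at 0.26 across genes. On simulated data 22% of calls with the block were false, but the simulation held no replicate effect, so it cannot judge the block here.

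With each library left out in turn, 3573 to 3646 genes and 3 to 4 members were called, where the lone library of a group is assumed to vary like the other group. Log2 fold changes then ran from 1.95 to 2.25 for *Cd74*, 0.59 to 1.0 for *H2-Oa*, 0.40 to 0.44 for *H2-Ob*, -1.16 to -0.69 for *H2-DMb2* and -1.81 to -0.72 for *H2-Eb1*. Members whose groups overlapped changed sign in this range: *Ciita* from -0.26 to 0.39, *H2-Aa* from -0.17 to 0.71, *H2-Ab1* from -0.12 to 0.03, *H2-DMa* from -0.28 to 0.11 and *H2-DMb1* from -0.31 to 0.20. Reversed single values were -0.11 for *Ciita*, -0.10 for *H2-Aa*, 0.02 for *H2-DMb1* and 0.01 for *H2-DMa*. The ratio of *Ciita* to the classical chains ran from -0.20 to 0.48, with -0.16 without EV-RV replicate 2, and that of *Cd74* to the classical chains from 1.92 to 2.38. *H2-DMb2* was not called with DESeq2 at -0.91, where the cause was not tested, and *Cd83* was too low for the filter on a mean of 50 normalized counts. Counts of 9 to 54 reads per library limit *H2-Aa*, *H2-Eb1*, *H2-DMa*, *H2-DMb1* and *Ciita* to wide intervals.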
